A study of Mus musculus with 8 samples.

Results

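Imprinted genes were followed in mouse embryonic fibroblasts (MEFs) with and without a segmental duplication of chromosome 16. The set was a list of 34 genes whose expression from the maternal or the paternal chromosome is described for the mouse, and its members were found by gene symbol among the 19493 endogenous genes of the count table. A row was found for 31 of the 34, and 28 had enough counts to enter the tests, which covered 16470 genes in all. The expression of Snurf, Ascl2 and Peg13 was not analysed here. By parental class, 20 listed genes are paternally expressed (18 with a row, 16 tested), 13 are maternally expressed (12 with a row, 11 tested), and Gnas, the locus of the stimulatory G protein alpha subunit, makes transcripts of both kinds.

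Poly(A) RNA was sequenced in 8 MEF libraries, 4 from wild-type (WT) and 4 from Dp1Tyb E14.5 embryos. The labels give C57BL/6J.129P2 as the strain of both, and according to the methods all mice had been backcrossed to C57BL/6JNimr. Dp1Tyb embryos carry Dp(16Lipi-Zbtb21)1TybEmcf, an extra copy of the stretch of chromosome 16 from Lipi to Zbtb21 that is orthologous to human chromosome 21, so that its genes are present in 3 copies rather than 2. No imprinted gene of the list lies on chromosome 16. The cells of both genotypes came from littermate embryos from which the head and viscera had been removed, were grown for 2 passages and lifted with trypsin, so the cultures are mixed primary cells rather than a clone. Synthetic ERCC spike-in RNAs went into the Trizol lysate of the same number of cells for each library. The labels do not say that the libraries came from separate embryos or cultures. The p-values therefore rest on the spread between these libraries, which may be technical and is not each gene's own alone. Total counts per library ranged from 17698900 to 26471758, of which 0.882% to 1.65% were spike-ins. All 12 fibroblast markers (collagens, Vim, Pdgfra and others) were tested, and their summed level was 24024 to 34276 CPM (counts per 1000000 of the scaled library size) in WT and 27820 to 34104 in Dp1Tyb libraries. Dp1Tyb replicate 1 stood apart from the other libraries, with 98 of the 8291 genes averaging 300 or more counts lying more than 2-fold below every other library, and its Mki67, a marker of dividing cells, was 76.3 CPM against 272 to 706 in WT libraries.

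An imprinted gene is expressed mainly from the copy inherited from one parent, because a nearby control region carries DNA methylation set in the egg or the sperm. Imprinted genes lie in domains that share such a region, often with a long non-coding RNA made from one parental chromosome and protein-coding genes made from the other. Many of them act on growth of the fetus and placenta, paternally expressed genes such as Igf2 promoting it and maternally expressed genes such as H19, Igf2r, Grb10 and Cdkn1c restraining it, and several are switched down in most tissues after birth. The counts carry no allele information, so every value here is a total over both parental copies and says nothing about which copy was used.

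Levels of different genes were compared per length, as RPKM, which is the CPM divided by the kilobases of annotated exons, on relative scaling, in which each library was scaled to its own endogenous genes. The members spanned a wide range, with a mean of 1 RPKM or more for 24 of the 31. H19, a maternally expressed long non-coding RNA that also holds a miRNA, had the highest mean level, 1611 RPKM, the 13th highest of 16343 tested genes with a known exon length. Igf2, the paternally expressed growth factor of the same domain, was the second at 653 RPKM. Next came Igf2r, the receptor that carries IGF2 to lysosomes, at 135 RPKM, and Grb10, an adaptor that dampens insulin and IGF receptor signalling, at 97.2 RPKM. Peg3 (37.2 RPKM), a zinc finger protein, Plagl1 (34.7), a zinc finger transcription factor, Impact (32.7), a regulator of the translational stress kinase Gcn2, Rian (30.1) and Meg3 (25.8), long non-coding RNAs of the Dlk1-Dio3 domain, lay close to each other, and the ranges of their libraries overlapped between every neighbouring pair in this order. Those of H19 and Igf2 did not overlap, nor did those of Igf2 and Igf2r, while those of Igf2r and Grb10 did.

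**Figure D1:**
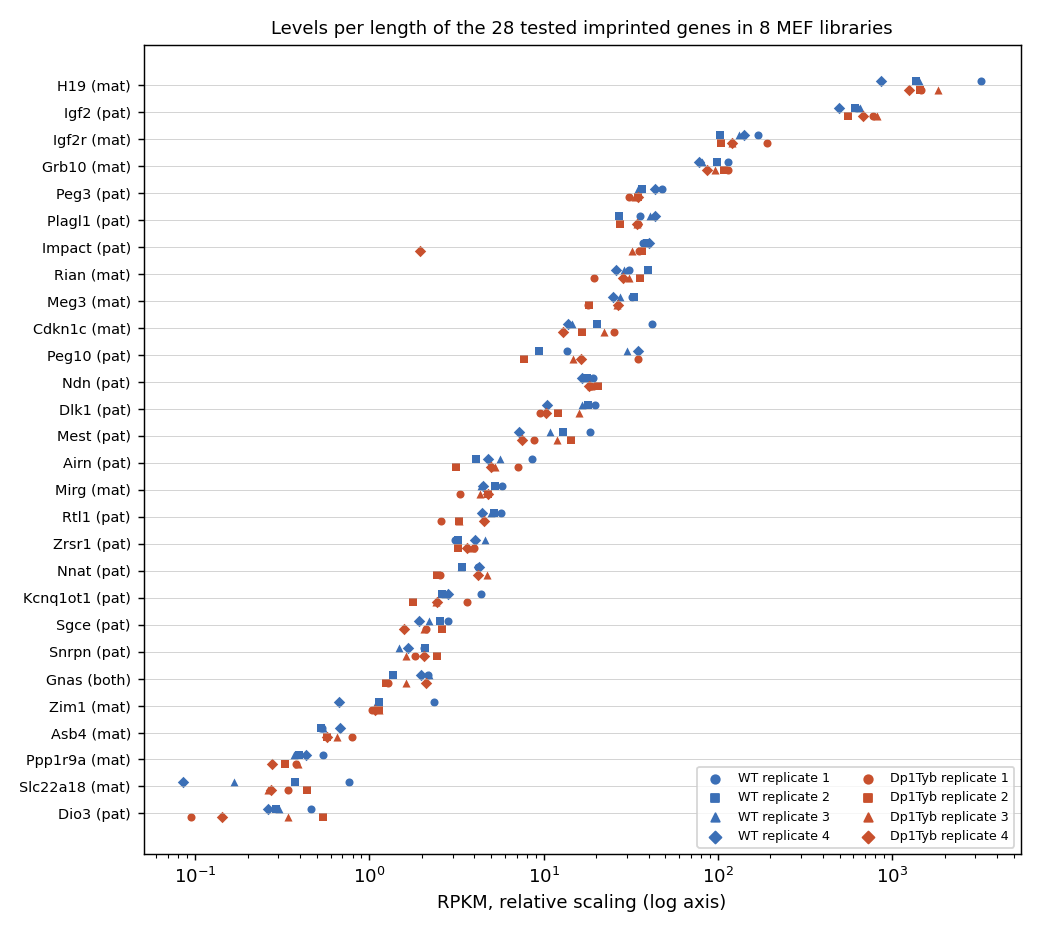
Level of each of the 28 tested imprinted genes in RPKM on relative scaling (log axis), 1 point per library, ordered by the mean over 8 libraries, with the expressed parental copy in brackets (pat, paternal; mat, maternal). H19 and Igf2 stand at the top, Dio3 at the bottom, and the points of the 2 genotypes intermingle for most genes, with a single low point for Impact.

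A middle group followed, made of Cdkn1c (21 RPKM), the cyclin-dependent kinase inhibitor p57, Peg10 (20.2), a gene derived from a retrotransposon, Ndn (18.4), which encodes necdin, Dlk1 (14), a Notch-ligand-like membrane protein, and Mest (11.5), a hydrolase-fold protein. Airn (5.45), Mirg (4.64), Rtl1 (4.25), Zrsr1 (3.71), Nnat (3.64), Kcnq1ot1 (2.85), Sgce (2.23), Snrpn (1.9), Gnas (1.74) and Zim1 (1.21) were lower still. Asb4 (0.609), Ppp1r9a (0.388), Slc22a18 (0.338) and Dio3 (0.305), the deiodinase that inactivates thyroid hormone, were the lowest of the tested members. Phlda2, Magel2 and Usp29 had too few counts for a test. The highest count of Phlda2 in any library was 10, that of Magel2 was 8 and that of Usp29 was 8. Phlda2, a growth-restraining gene of the placenta, had counts of 1, 2, 3 and 0 in the WT libraries, by replicate number, and of 10, 4, 2 and 7 in the Dp1Tyb libraries. On relative scaling these libraries overlapped. On spike-in scaling they did not, with 0.053, 0.0749, 0.101 and 0 CPM in WT and 0.466, 0.159, 0.104 and 0.529 in Dp1Tyb, beside 0.285% of all tested genes that were higher without overlap. Phlda2 is not among the tested genes, and the share for genes of such low counts is not given here. The closest Phlda2 libraries, at 0.101 and 0.104 CPM, rest on 3 and 2 counts. When the filter on low counts was dropped, Phlda2 had an edgeR adjusted p = 1 on both scales and a p under 0.05 before adjustment (0.0197 on relative and 0.00918 on spike-in scaling). In the fits with the filter, which Phlda2 did not enter, 4.27% and 1.17% of all tested genes were under 0.05. The single value of 0, in WT replicate 4, allows up to 3 counts, an allowance that covers counting error only.

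The RPKM values depend on the exon lengths taken from the annotation, and some members share their exons with other genes. For Igf2, 62.8% of the exon bases lie in another gene on the same strand (Gm49394), and for Snrpn 27.3% do (Gm38393 and Snurf). How reads in shared exons were counted is not given in the sources used here. The levels of members with shared exons may therefore be too low or too high, and the order of H19 and Igf2 rests on this too. The strand setting of the counting is not given in the sources used here, so reads of a member and of a gene on the opposite strand may not have been told apart for Cdkn1c (30.7% of exon bases), Mest (23.1%), Gnas (22%), Usp29 (14.3%), Zrsr1 (9.17%) and Rtl1 (8.12%).

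The 31 members together took 1.32% ± 0.398 of the endogenous counts in WT and 1.22% ± 0.145 in Dp1Tyb libraries (SD, n = 4 each), and H19 and Igf2 alone took 0.791% ± 0.322 and 0.759% ± 0.116. For H19, WT replicates 1 to 4 gave 7926, 3391, 3505 and 2118 CPM on relative scaling, and Dp1Tyb replicates 1 to 4 gave 3622, 3538, 4535 and 3066. One WT library was thus far above the other 7, and the Dp1Tyb libraries fell within the WT range. The log2 fold change of H19, Dp1Tyb over WT, was -0.20 (SE 0.35), and it was 0.30 without WT replicate 1. The Igf2 levels were 3553, 3493, 3763 and 2849 in WT and 4449, 3210, 4677 and 3896 CPM in Dp1Tyb libraries. Of the Dp1Tyb values 3 lay above every WT value and 1 lay within them, and the log2 fold change of 0.25 (SE 0.16, edgeR adjusted p = 0.999) did not pass the test. The ratio of H19 to Igf2 counts was 2.23 in WT replicate 1 and 0.744 to 1.1 in the other 7 libraries.

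Igf2r stood at 1582, 956, 1227 and 1308 CPM in WT replicates 1 to 4 and at 1781, 965, 1117 and 1129 in Dp1Tyb replicates 1 to 4. Its highest value was in replicate 1 of each genotype, and the groups overlapped throughout (log2 fold change -0.02, SE 0.21). Grb10 gave 1037, 894, 735 and 710 CPM in WT and 1037, 989, 879 and 784 in Dp1Tyb libraries. These ranges also overlapped, with a log2 fold change of 0.13 (SE 0.15). Plagl1 was at 280, 213, 320 and 338 CPM in WT and at 271, 214, 268 and 268 in Dp1Tyb libraries. Replicate 2 of both genotypes was the lowest for Plagl1, and its log2 fold change was -0.17 (SE 0.15).

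The comparison of Dp1Tyb with WT asked whether the duplication goes with a different level of any imprinted gene. It was made on 2 scales. Relative scaling gives a gene's share of the endogenous mRNA, and spike-in scaling gives its level per added spike-in RNA, hence per cell put into the extraction. In such bulk cultures, fewer cells of a type and less RNA per cell cannot be told apart. On spike-in scaling edgeR gave an SE of 0.32 to Rian, H19 and Impact alike. Their SD of log2 CPM within genotype on that scale was 0.35, 0.72 and 1.34. The spike-in SE and p from edgeR thus reflect a spread pooled over genes more than that of each gene. No member passed a Benjamini-Hochberg adjusted p of 0.05 over all tested genes in edgeR's quasi-likelihood test, on either scale. The adjusted p was 0.975 for Rtl1 and 0.999 for the other tested members on relative scaling. This threshold was passed by 3 of 16470 genes (0.0182%) on relative and by 2 (0.0121%) on spike-in scaling. DESeq2 called 52 of 16466 genes (0.316%) on relative and 2 of 16454 (0.0122%) on spike-in scaling, and no member was among them.

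At an unadjusted p under 0.05 in edgeR, 3 of the 28 tested members were lower in Dp1Tyb on relative scaling, Rtl1, Meg3 and Peg3, and none was higher. Among all tested genes 2.53% were lower and 1.74% higher at this threshold, 4.27% together. Without WT replicate 1 a single member was left, and Rtl1 stayed under 0.05 before adjustment in every relative-scaling fit that left out a library. The share of all tested genes under 0.05 in those fits is not given here. On spike-in scaling with all libraries no member reached an unadjusted p under 0.05, beside 1.17% of all tested genes (0.85% higher and 0.316% lower). The sign of the fold change was below 0 for 23 of 28 members on relative scaling (82.1%), beside 48.8% of all tested genes, with a median log2 fold change of -0.21 against 0.01. Paternally and maternally expressed members did so alike, 13 of 16 (81.2%) and 9 of 11 (81.8%), each with a median of -0.20. Among 40 tested imprinted genes outside this list, 37.5% were below 0 on relative scaling, with a median of 0.04. Both lists were chosen with earlier results of these data known. On spike-in scaling, where the median of all tested genes was 0.11, 21 of 28 members (75%) were below 0, beside 29.6% of all tested genes, and the members' median was -0.14, which is 0.25 below that of all genes.

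The size of this majority of lower signs rested in part on single libraries, WT replicate 1 most. Without WT replicate 1, 16 of 28 members were below 0 on relative scaling, with a median of -0.08, beside 46.1% of all tested genes and a median of 0.02. In the same fit on spike-in scaling 7 of 28 (25%) were below 0, with a median of 0.14, beside 17.1% of all tested genes and a median of 0.22. The members' median thus stayed below that of all genes, by 0.10 and 0.09. Without Dp1Tyb replicate 2, 18 of 28 (64.3%) were below 0 on relative scaling, with a median of -0.19, beside 50.6% of all tested genes. In that fit on spike-in scaling 12 of 28 (42.9%) were below 0, beside 15.3% of all tested genes, whose median moved to 0.28. The members' median lay 0.26 below that of all genes, as in the fit of all libraries (0.25). The members above 0 on both scales were Igf2, Ndn, Snrpn, Grb10 and Asb4, and Igf2r and Zrsr1 were above 0 on spike-in scaling only.

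**Figure D2:**
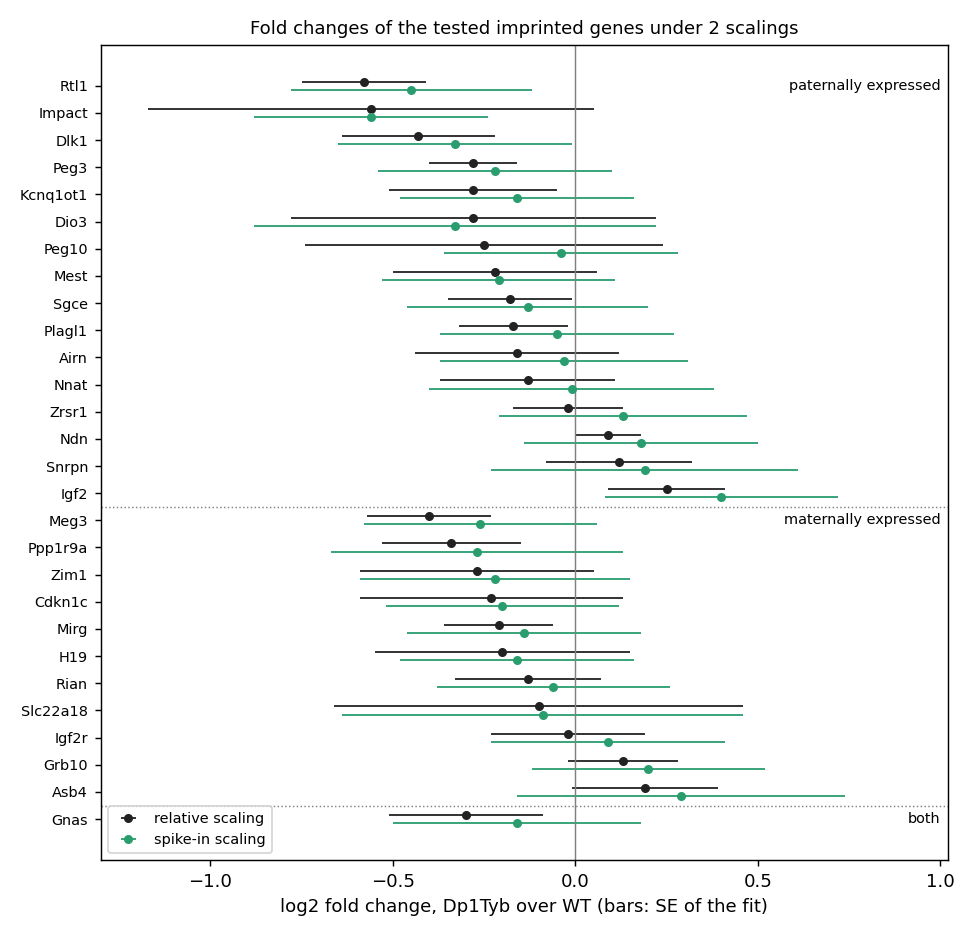
Log2 fold change, Dp1Tyb over WT, of the 28 tested imprinted genes with the standard error of the edgeR fit as bars, on relative (black) and spike-in scaling (green), grouped by the expressed parental copy. Most points lie to the left of 0, Rtl1 and Impact farthest, and none passes the test adjusted over 16470 genes.

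The Dlk1-Dio3 domain on chromosome 12 holds paternally expressed coding genes (Dlk1, Rtl1, Dio3) and maternally expressed non-coding RNAs (Meg3, Rian, Mirg), and its 6 members span 828 kb. All 6 were below 0 on both scales, with a median log2 fold change of -0.34 on relative and -0.29 on spike-in scaling. Over the fits that left out 1 library, 4 to 6 of the 6 were below 0 on relative and 3 to 6 on spike-in scaling, the lowest counts coming without Dp1Tyb replicate 1 and WT replicate 1, respectively.

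Rtl1 (ENSMUSG00000085925, chr12:109589193-109600330, minus strand, GRCm38), a coding gene derived from a retrotransposon and needed for the placental vessels, had the smallest p of all members on relative scaling. The values of WT replicates 1 to 4 were 36.2, 33.1, 31.8 and 28.2 CPM, and those of Dp1Tyb replicates 1 to 4 were 16.5, 20.8, 20.9 and 28.7. In 3 Dp1Tyb libraries Rtl1 was below every WT library, and in Dp1Tyb replicate 4 it was just above the lowest WT library. The means were 32.3 ± 3.33 and 21.7 ± 5.1 CPM (SD, n = 4 each), the log2 fold change was -0.58 (SE 0.17), and the p from edgeR was 0.00656 before adjustment (adjusted p = 0.975). On spike-in scaling it was -0.45 (SE 0.33).

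The exon of Rtl1 is also the place of miRNA genes made from the opposite strand and from the maternal copy, which can cut the Rtl1 mRNA because they match it perfectly. RefSeq (GRCm38.p6) places 13 mature miRNAs within the exons of Rtl1, 11 of them antisense and from 6 hairpin genes. The letters of all 11 have a full complement in the 1 annotated Rtl1 transcript, and their 11 seeds (bases 2 to 8) all differ. Poly(A) libraries do not measure mature miRNAs, and the miRNAs were not analysed here. One antisense mature miRNA of each hairpin gene is shown, 5′ to 3′, with the seed in capitals, because they lie in the exon whose reads make up the count of Rtl1:
mmu-miR-431-5p: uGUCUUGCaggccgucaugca
mmu-miR-433-3p: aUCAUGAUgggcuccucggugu
mmu-miR-127-3p: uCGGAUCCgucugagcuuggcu
mmu-miR-434-3p: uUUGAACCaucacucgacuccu
mmu-miR-432: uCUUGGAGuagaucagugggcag
mmu-miR-136-5p: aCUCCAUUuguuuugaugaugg

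Meg3 (ENSMUSG00000021268, chr12:109541001-109571726, plus strand), the long non-coding RNA at the head of the maternal transcripts of the domain, gave 583, 596, 497 and 452 CPM in WT replicates 1 to 4. In Dp1Tyb replicates 1 to 4 it gave 324, 331, 473 and 483. The first pair of Dp1Tyb libraries was below every WT library, and the second pair lay within the WT range. The means were 532 ± 69.2 and 403 ± 87.2 CPM (SD, n = 4 each), with a log2 fold change of -0.40 (SE 0.17, unadjusted p of 0.0371, edgeR adjusted p = 0.999). On spike-in scaling it was -0.26 (SE 0.32), and -0.49 to -0.04 over the fits that left out 1 library. Rian, the non-coding RNA downstream of Meg3 that hosts snoRNAs, was at 566, 726, 531 and 472 CPM in WT and at 354, 655, 567 and 519 in Dp1Tyb libraries. Only Dp1Tyb replicate 1 left the WT range of Rian, and the log2 fold change was -0.13 (SE 0.20).

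Dlk1 ranged from 58.6 to 111 CPM in WT and from 53.8 to 89.9 in Dp1Tyb libraries (log2 fold change -0.43, SE 0.21). Mirg, a host of miRNAs at the distal end, ranged from 31.9 to 42.2 and from 24.1 to 35 CPM (log2 fold change -0.21). Dio3 had 5 to 21 counts per library, so its log2 fold change of -0.28 carried an SE of 0.50. On relative scaling all 6 genes were at their lowest of the 8 libraries in Dp1Tyb replicate 1, the library with the lowest Mki67. The part of that library's low proliferation genes in the result was not tested. Without it the log2 fold change on relative scaling was -0.46 for Rtl1, -0.31 for Meg3, which was then no longer under 0.05 before adjustment (edgeR p of 0.0883), and 0.02 for Rian.

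The promoters of Meg3 and Dlk1 are shown because these genes, of opposite parental origin, form a pair compared over the libraries further on. Each is 250 bases before to 50 after the RefSeq start in GRCm38.p6, given 5′ to 3′ on the gene's strand, with CG dinucleotides, the sites where a mammalian genome is methylated, in capitals. Meg3 is at chr12:109540746-109541045 and Dlk1 at chr12:109452573-109452872, both on the plus strand. The Meg3 window holds 13 CG dinucleotides and, read on the opposite strand from base 61, the letters TGCCGC, the core motif of Zfp57, which keeps methylation at imprinted control regions. The Dlk1 window holds 9 CG dinucleotides and not these letters:
Meg3: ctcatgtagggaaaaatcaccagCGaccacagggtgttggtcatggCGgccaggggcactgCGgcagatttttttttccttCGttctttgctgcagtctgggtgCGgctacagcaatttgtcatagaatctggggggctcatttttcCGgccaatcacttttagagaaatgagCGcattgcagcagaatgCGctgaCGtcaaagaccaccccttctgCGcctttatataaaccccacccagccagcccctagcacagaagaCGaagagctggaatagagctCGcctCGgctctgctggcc
Dlk1: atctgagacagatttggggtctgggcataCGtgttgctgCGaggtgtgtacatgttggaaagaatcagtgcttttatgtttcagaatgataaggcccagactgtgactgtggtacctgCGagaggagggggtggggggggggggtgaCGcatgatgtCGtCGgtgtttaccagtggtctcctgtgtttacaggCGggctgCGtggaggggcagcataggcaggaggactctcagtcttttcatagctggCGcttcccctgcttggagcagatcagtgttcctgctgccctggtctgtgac

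Peg3 (ENSMUSG00000002265, chr7:6703892-6730431, minus strand), a paternally expressed zinc finger protein, was the third member at an unadjusted p under 0.05. WT replicates 1 to 4 gave 640, 492, 466 and 578 CPM and Dp1Tyb replicates 1 to 4 gave 415, 466, 444 and 463. The groups did not overlap, although the lowest WT and the highest Dp1Tyb value are the same when rounded to the unit. Genes whose libraries did not overlap and were lower in Dp1Tyb made up 1.52% of all tested genes on this scale, and 2 members, Peg3 and Impact, were among them. No member was higher in this way, beside 1.64% of all tested genes. The means of Peg3 were 544 ± 80 and 447 ± 23.5 CPM (SD, n = 4 each), with a log2 fold change of -0.28 (SE 0.12, unadjusted p of 0.0423, edgeR adjusted p = 0.999). Over the fits that left out 1 library its unadjusted edgeR p ranged from 0.0275 to 0.111. It was above 0.05 without WT replicate 1, WT replicate 4, Dp1Tyb replicate 1 or Dp1Tyb replicate 2. On spike-in scaling the Peg3 libraries overlapped, as did those of every other tested member (beside 0.14% of all tested genes lower and 0.285% higher). The log2 fold change of Peg3 on that scale was -0.22 (SE 0.32), and -0.40 to -0.02 over the fits that left out 1 library.

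Peg3 starts head to head with Usp29, a deubiquitinase gene that is also paternally expressed, and their RefSeq promoter windows share 263 bases. Peg3 had 8044 to 14333 counts per library and Usp29 1 to 8. The window of Peg3, at chr7:6730370-6730669 on the minus strand, is shown because both genes start from it. Its 13 CG dinucleotides are in capitals:
Peg3: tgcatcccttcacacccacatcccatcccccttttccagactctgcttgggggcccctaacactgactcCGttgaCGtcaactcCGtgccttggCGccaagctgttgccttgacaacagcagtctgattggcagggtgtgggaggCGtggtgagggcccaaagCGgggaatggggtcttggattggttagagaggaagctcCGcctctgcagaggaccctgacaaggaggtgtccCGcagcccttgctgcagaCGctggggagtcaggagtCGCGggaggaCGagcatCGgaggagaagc

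Zim1, a maternally expressed zinc finger gene next to Peg3, ranged from 5.39 to 19.1 CPM in WT and from 8.39 to 9.17 in Dp1Tyb libraries (log2 fold change -0.27, SE 0.32). Its WT range enclosed the Dp1Tyb range, with WT replicate 1 the highest of the 8.

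**Figure D3:**
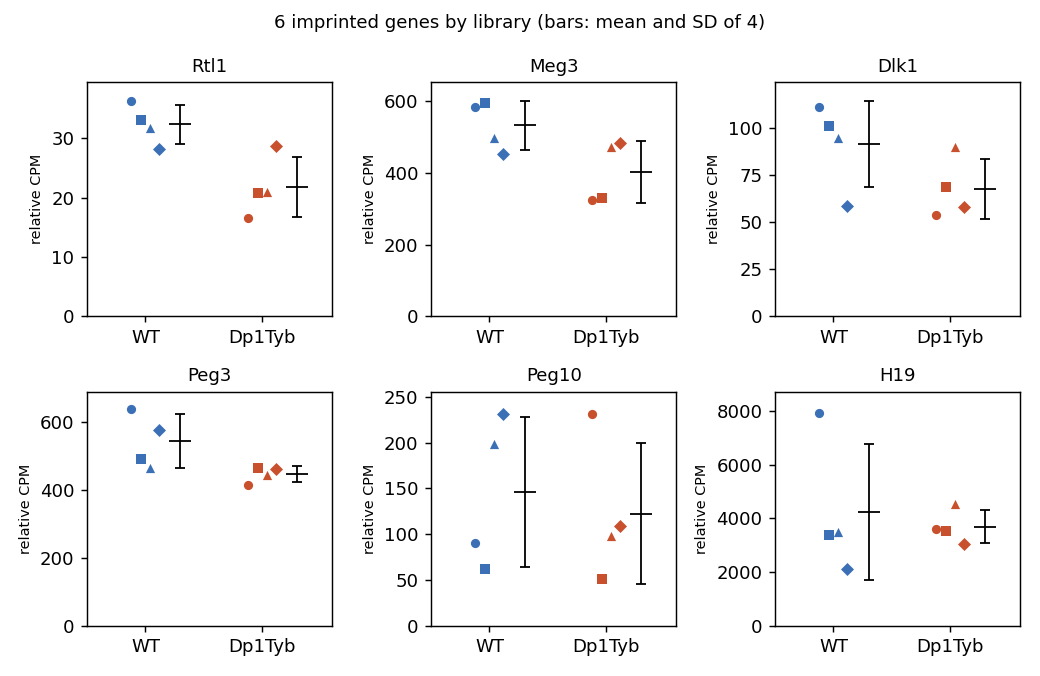
Level of 6 imprinted genes in CPM on relative scaling, 1 point per library (circle, square, triangle and diamond for replicates 1 to 4), with the mean and SD of 4 libraries at the right of each group. Rtl1, Meg3 and Peg3 have lower means in Dp1Tyb, Dlk1 overlaps widely, and Peg10 and H19 vary more within a genotype than between genotypes.

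Impact (ENSMUSG00000024423, chr18:12955852-12992950, plus strand) was the member whose single libraries differed most. Its product binds Gcn1 and holds back activation of the kinase Gcn2. In WT replicates 1 to 4 it was at 190, 202, 202 and 205 CPM and in Dp1Tyb replicates 1 to 4 at 181, 188, 164 and 9.95. The first 7 values lie within 164 to 205 CPM (mean 190 ± 14.6, SD, n = 7), and the eighth, in Dp1Tyb replicate 4, is 5.23% of their mean, or 19.1-fold lower, and 16.5-fold below the lowest of them. It rests on 173 counts, with an exact 95% Poisson interval of 148 to 201 that covers counting error only, while the other libraries had 3251 to 4762 counts. On spike-in scaling that library was 14.3-fold below the mean of the other 7.

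Among the 8291 genes averaging 300 or more counts, Impact was the only one more than 2-fold below every other library in Dp1Tyb replicate 4, a search made after the value had been seen. It was also the only one among the 4390 genes averaging 1000 or more. The standard deviation of log2 CPM within genotype was 1.47 for Impact, which 71 tested genes exceeded, and 0.07 without that library. The comparison of genotypes therefore turned on this library, with a log2 fold change of -0.56 on both scales (SE 0.61 on relative and 0.32 on spike-in scaling, unadjusted edgeR p of 0.386 and 0.0752). The spike-in SE does not reflect the spread of Impact itself, and DESeq2 on that scale gave an unadjusted p of 0.437. Without Dp1Tyb replicate 4 the fold change was -0.17 on relative and -0.18 on spike-in scaling (unadjusted edgeR p of 0.132 and 0.608). The Impact libraries do not overlap between genotypes on relative scaling, also with the 3 remaining Dp1Tyb libraries (178 ± 12 CPM, SD, n = 3).

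The genes next to Impact were not low in that library to a like degree. Osbpl1a, an oxysterol-binding protein gene that lies 14011 bases away on the opposite strand, was at 32.9 CPM in Dp1Tyb replicate 4 and at 38.1 to 46.1 in the other 7 libraries. Ttc39c, 216989 bases away, was at 14.6 CPM there, the highest of its 8 values, which ranged from 8.49. Cabyr, next to Ttc39c, was at 1.96 CPM in that library and at 0.967 to 2.48 in the others. Gm26407, a small RNA gene annotated inside Impact, had 13 counts there and 12 to 35 in the other libraries.

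**Figure D4:**
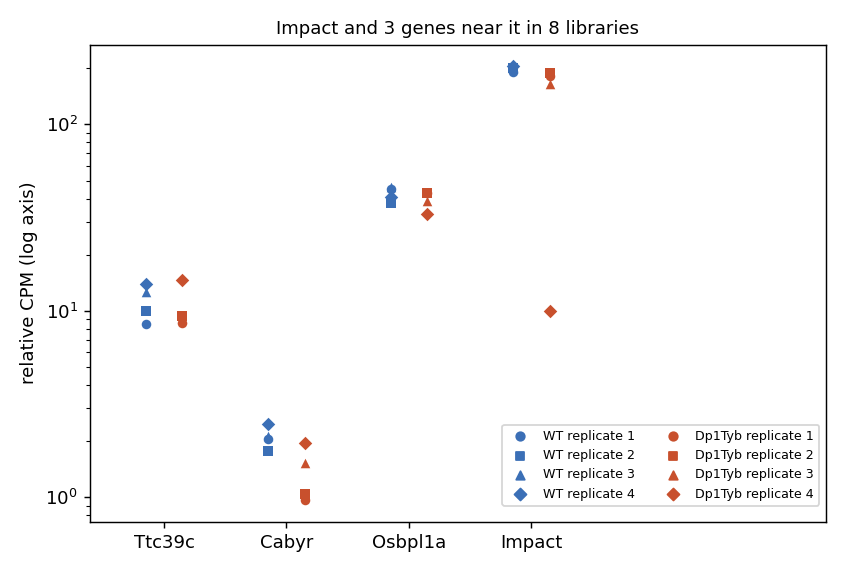
Level in CPM on relative scaling (log axis) of Impact and 3 genes near it, 1 point per library. Impact in Dp1Tyb replicate 4 (diamond) is at 9.95 CPM against 164 to 205 in the other 7 libraries, while the same library lies with the others for Ttc39c and Cabyr and at 32.9 CPM for Osbpl1a.

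All 3 tested members of the Kcnq1ot1 domain were below 0 on both scales with all libraries. When each library was left out in turn, Kcnq1ot1 kept its sign on relative scaling, Cdkn1c and Slc22a18 did not, and on spike-in scaling none of the 3 did. Kcnq1ot1, the paternally made antisense RNA that silences its neighbours on that chromosome, ranged from 244 to 407 CPM in WT and from 164 to 340 in Dp1Tyb libraries (log2 fold change -0.28, SE 0.23). Cdkn1c ranged from 28.2 to 85.9 and from 26.3 to 51.6 CPM (log2 fold change -0.23, SE 0.36), and Slc22a18, a transporter gene, had 3 to 29 counts per library. The silencing RNA Airn and its target Igf2r overlapped widely between genotypes, Airn with 14.6 to 30.7 CPM in WT and 11.4 to 25.8 in Dp1Tyb (log2 fold change -0.16, SE 0.28).

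In the Peg10-Sgce domain, Peg10 varied far more than its head-to-head neighbour Sgce, the epsilon-sarcoglycan gene. Peg10 ranged from 62.3 to 232 CPM in WT and from 51.2 to 232 in Dp1Tyb libraries, a standard deviation of 0.90 in log2 within genotype, which 3.7% of tested genes reached. Sgce ranged from 20.5 to 29.8 and from 16.7 to 27.7 CPM, with a standard deviation of 0.27. Their log2 fold changes were -0.25 (SE 0.49) and -0.18 (SE 0.17). Ppp1r9a, a synaptic scaffold gene, was at -0.34 (SE 0.19) and Asb4, a ubiquitin ligase component, at 0.19 (SE 0.20).

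The tested members of the Prader-Willi domain were both above 0. Ndn, which encodes a MAGE family growth suppressor, was the steadiest member on relative scaling, from 61.5 to 70.4 CPM in WT and 67.1 to 75.3 in Dp1Tyb libraries. Its standard deviation there was 0.08 in log2, which 98% of tested genes matched or exceeded. On spike-in scaling it was 0.36, beside 0.35 for Rian and Sgce. The log2 fold change of Ndn was 0.09 (SE 0.09) and that of Snrpn, a spliceosomal protein gene, 0.12 (SE 0.20). Of the members that stand alone in the list, Mest was at -0.22 (SE 0.28), Nnat, a small membrane protein gene, at -0.13 (SE 0.24), Gnas at -0.30 (SE 0.21) and Zrsr1, a U2AF-like splicing factor gene, at -0.02 (SE 0.15), none with an unadjusted p under 0.05 in edgeR.

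Between libraries of one genotype the members had a larger median spread than all tested genes. The median standard deviation of log2 CPM within genotype was 0.33 over the 28 tested members and 0.28 over all tested genes. For genes averaging 300 or more counts it was 0.33 for 21 members and 0.19 for 8291 genes. On spike-in scaling the medians were 0.52 for the members and 0.48 for all tested genes. WT replicate 1 was the highest of the 8 libraries for 14 of 28 members (50%), among them H19, Cdkn1c, Zim1, Mest, Kcnq1ot1 and Airn, beside 19.4% of all tested genes. On spike-in scaling it was the highest for 15 of 28 members (53.6%), beside 24.2% of all tested genes. Dp1Tyb replicate 1 and WT replicate 4 were each the lowest library for 7 of 28 members (25%), beside 18.6% and 13.7% of all tested genes.

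**Figure D5:**
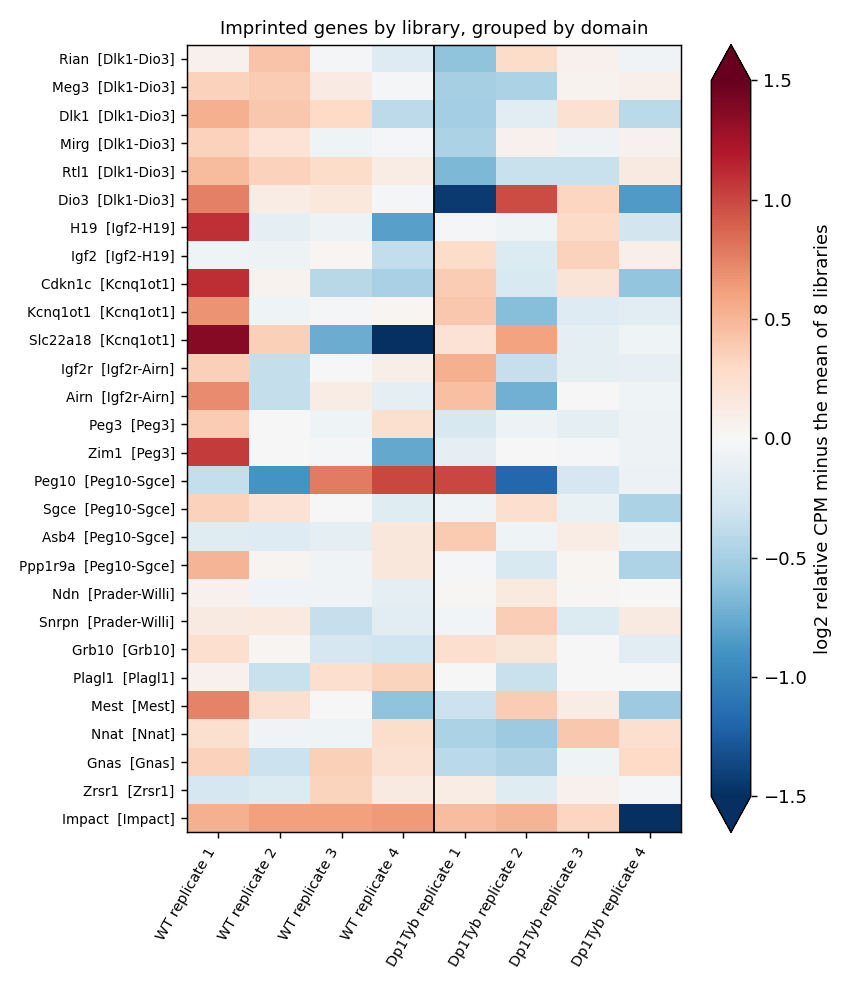
Deviation of log2 CPM (relative scaling) of each tested imprinted gene from its mean over 8 libraries, with genes grouped by domain (in brackets) and the WT libraries left of the line; colours stop at 1.5. WT replicate 1 is red for most genes, the Dlk1-Dio3 genes are blue in Dp1Tyb replicate 1, and Impact is dark blue in Dp1Tyb replicate 4.

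Members of one domain share a control region, so pairs within a domain, and Plagl1 with 3 genes of other domains, 12 pairs in all, were compared over the 8 libraries by log2 CPM on relative scaling, with exact permutation tests adjusted over the 12. None passed an adjusted p of 0.05. Igf2r and Airn, whose RNAs come from opposite parental copies, had the closest relation (Pearson r = 0.882, exact permutation p = 0.00454, adjusted p = 0.0545; Spearman rho = 0.786, exact permutation p = 0.0279, adjusted p = 0.168), and r was 0.754 without the 2 libraries farthest from the median of Igf2r. The 2 genes overlap on opposite strands, although no annotated exon base of either lies in an exon of an opposite-strand gene. Dlk1 and Meg3 had r = 0.732 (exact permutation p = 0.0432, adjusted p = 0.173; rho = 0.81, exact permutation p = 0.0218, adjusted p = 0.168), and r = 0.51 without 2 libraries. Rian and Mirg had r = 0.788 (exact permutation p = 0.0314, adjusted p = 0.173) and rho = 0.476 (exact permutation p = 0.243). Their r was 0.244 without the 2 libraries farthest from the median of Rian. Leaving out the extreme libraries of Rian narrows its range, which can lower r by itself. The fall therefore does not settle what the relation rests on.

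H19 and Igf2, which compete for the same enhancers, had r = 0.374 (exact permutation p = 0.359) and rho = 0.476 (exact permutation p = 0.243). Their r was 0.583 without 2 libraries. Peg10 and Sgce had r = -0.497 (exact permutation p = 0.209; rho = -0.667, exact permutation p = 0.0831). Plagl1, a transcription factor reported to act on other imprinted genes, had r of -0.175 with H19, -0.0659 with Igf2 and -0.146 with Cdkn1c, with exact permutation p of 0.706, 0.87 and 0.734. Without the 2 libraries farthest from the median of Plagl1, r was -0.524, -0.803 and -0.444. Meg3 and Rian had r = 0.5 (exact permutation p = 0.213) and rho = 0.5 (exact permutation p = 0.216), and r was 0.806 without 2 libraries. On spike-in scaling 4 of the 12 pairs passed an adjusted p of 0.05, Igf2r and Airn (r = 0.958), Rian and Mirg (0.888), Dlk1 and Meg3 (0.84) and Meg3 and Rian (0.805). The median spread of all tested genes was also larger on that scale (0.48 against 0.28), and its part in these relations was not tested.

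RefSeq promoter windows were found for 27 of the 34 listed genes, 42 windows in all, and some genes have several that overlap. Snurf and Snrpn share a window, so 41 of the 42 are distinct. The letters TGCCGC on either strand were in 10 of the 42 windows (23.8%, 9 of the 41 distinct ones) and in 11.6% of all 32851 windows. By gene they were in 9 of 27 members (33.3%), Nnat, Mest, Zim1, Snrpn, Snurf, Igf2, Plagl1, Grb10 and Meg3, and in 13.1% of all genes with a window. GCCATNTT, the core motif of Yy1, was in none of the 42 and in 6.05% of all windows. The median number of CG dinucleotides was 10.5 per member window and 7 over all windows. A match is a description of letters and not a site of binding.

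Genes that keep imprints, such as Dnmt1, the methyltransferase that copies methylation at replication, Trim28, Ctcf and Atrx, were taken as a further list. Of its 26 genes 24 were tested. On relative scaling 6 were above and 18 below 0 with a median of -0.05, beside 48.8% of all tested genes below 0. On spike-in scaling 19 were above and 5 below 0 with a median of 0.05, beside 29.6% of all tested genes below 0. None had an unadjusted p under 0.05 in edgeR on either scale, beside 4.27% (relative) and 1.17% (spike-in) of all tested genes. The smallest on relative scaling were those of Arid4b (log2 fold change -0.13), Atrx (-0.14), Ctcf (-0.11) and Mbd3 (0.06), each with an edgeR adjusted p = 0.999.

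Markers of other cell types were followed because a mixed culture could differ in its cells. All 8 macrophage markers were below 0 on both scales (median log2 fold change -0.55 relative, -0.46 spike-in), 5 of them at an unadjusted p under 0.05 in edgeR on relative scaling (2.53% of all tested genes were lower in this way) and 1 on spike-in scaling (0.316%), and their summed level was 287 to 383 CPM in WT and 159 to 311 in Dp1Tyb libraries. The part of such cells in the lower signs of the imprinted genes was not tested. Skeletal muscle markers summed to 13.8 to 33.4 CPM in WT and 7.23 to 44.4 in Dp1Tyb. On relative scaling 5 of 6 tested were above 0 (median log2 fold change 0.73). None had an unadjusted p under 0.05 in edgeR, beside 1.74% of all tested genes higher in this way. On spike-in scaling 6 of 6 were above 0 (median 0.84). Myh3 and Des had an unadjusted p under 0.05 in edgeR, beside 0.85% of all tested genes higher in this way. Epithelial markers summed to 7.19 to 20.4 and 5.34 to 15 CPM, with 3 of 4 below 0 on relative and 2 of 4 on spike-in scaling. For comparison, 48.8% and 29.6% of all tested genes were below 0 on these scales. Neuronal markers summed to 101 to 125 and 78.7 to 129 CPM (5 of 8 below 0 on relative, 3 of 8 on spike-in scaling). Endothelial markers summed to 194 to 296 and 229 to 245 CPM (5 of 6 below 0 on both scales). Most of the endothelial sum was Flt1, at 158 to 262 CPM in WT and 162 to 199 in Dp1Tyb, while Pecam1 was at 0.379 to 1.23 over all libraries. Chondrocyte markers summed to 75.6 to 164 and 71 to 134 CPM (6 of 7 and 5 of 7 below 0). The 15 proliferation genes summed to 960 to 2229 CPM in WT and 416 to 2080 in Dp1Tyb libraries, with 7 of 15 below 0 on relative and 3 of 15 on spike-in scaling.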

How the data were processed

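Poly(A) RNA of 4 WT and 4 Dp1Tyb MEF libraries was analysed, with groups and replicate numbers from the sample titles. The authors trimmed reads with Trim Galore, aligned them with TopHat2 2.0.12 to GRCm38 amended with ERCC sequences, discarded reads with several alignments and counted reads per gene with HTSeq, and the deposited raw counts (whole numbers, not normalised) are the values used here. Discarding such reads lowers genes with close copies. The annotation release and strand option are not given in the sources used here. The deposited normalised counts and DESeq2 table (fold changes and p-values) were not used.

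Gene IDs were matched to GENCODE M21 (19318 matched, 175 did not), which gave symbols, positions and exon lengths. Members and lists were chosen with earlier results of these data known. Genes passing filterByExpr (16470) were tested with edgeR 4.0.16 in R 4.3.3 (two-sided quasi-likelihood test, Benjamini-Hochberg over all) on all 8 libraries without covariates, with TMM factors over endogenous genes (relative scaling) or median-of-ratios factors over spike-ins (spike-in scaling). Logarithms for spread and pairs used a pseudocount of 0.5 counts, added before scaling. Alternatives were DESeq2 1.42.0, other filters, other scalings, a pseudocount of 5, a replicate block and each library left out; a count floor of 1000 for the search of low genes was added after seeing the data. The fits were tested on simulated data. Values in every library are given for the 8 members of highest RPKM, for members at an unadjusted p under 0.05 and for members whose libraries did not overlap on either scale. Libraries of one genotype differed beyond counting noise (chi-square per degree of freedom of 10.4 to 95.7), so none was counted as a repeat run of another. This measure holds counting noise only, so it cannot tell separate cultures from separate preparations of one culture. Total counts of 17698900 to 26471758 per library set the precision, and members under about 30 counts carry wide errors.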

Additional observations from a re-analysis of the deposited data

Results flagged for a closer look

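A total of 4 results stood apart within a group of 4 libraries, judged by the gap of the extreme library to its neighbour as a share of the group's range in log2 CPM, against Dixon's critical value. With 56 groups tested, chance gives about 1 in 20, and 4 were found. Impact in Dp1Tyb replicate 4 was far below the other Dp1Tyb libraries (share 0.955, 9.95 CPM against 164 to 188). Plagl1 in Dp1Tyb replicate 2 was below the other Dp1Tyb libraries (share 0.954, 214 CPM against 268 to 271). Asb4 in WT replicate 4 was above the other WT libraries (share 0.895, 2.67 CPM against 2.08 to 2.13, from 45 to 55 counts per WT library). Kcnq1ot1 in WT replicate 1 was above the other WT libraries (share 0.86, 407 CPM against 244 to 262). For Plagl1, WT replicate 2 was also the lowest of its group, at 213 CPM.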

How the results depend on the processing

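No member was called at an adjusted p under 0.05 under any alternative run. Members at an unadjusted p under 0.05 numbered 3 on relative scaling and 1 to 3 when each library was left out, and 0 on spike-in scaling, where they numbered 0 to 1 without a library and 1 with no filter (Phlda2, edgeR). The share of all tested genes under 0.05 in these alternative fits is not given here, so their counts of members cannot be judged against it. Over all tested genes, calls went from 3 to 52 with DESeq2, 0 with at least 10 counts in every library and 1 without any 1 library on relative scaling, and from 2 to 0 with that filter and 2 to 8 without a library on spike-in scaling. Rtl1 kept its sign, from -0.74 to -0.46 (relative) and -0.77 to -0.26 (spike-in) without a library. The members' median ranged over -0.27 to -0.08 and -0.30 to 0.14 without a library, and less that of all tested genes over -0.29 to -0.10 and -0.30 to -0.09, below 0 in every setting run. Without 1 library or another, 12 of 28 members changed sign on relative and 17 on spike-in scaling. Among the 11 members followed singly, which leave out Cdkn1c and Slc22a18, these were, on relative scaling, H19 (-0.42 to 0.30), Igf2r (-0.24 to 0.11) and Rian (-0.26 to 0.02), and on spike-in scaling H19 (-0.35 to 0.56), Igf2r (-0.20 to 0.34), Rian (-0.21 to 0.05) and Plagl1 (-0.20 to 0.17). The cause was not tested. The median spread of members was 0.52 on spike-in scaling and 0.28 to 0.35 without a library. On spike-in scaling 4 pairs passed, and r turned positive for Peg10 and Sgce (0.234), Ndn and Magel2 (0.617), Cdkn1c and Phlda2 (0.0363), and Plagl1 with H19 (0.452), Igf2 (0.747) and Cdkn1c (0.519). With genotype means removed, Plagl1 and Igf2 had r = 0.165.

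Same-numbered libraries did not all deviate together (r of 0.28, 0.569, -0.0983 and 0.516 over 8291 genes), so the numbers were not taken as pairs, although 3 of 4 WT libraries matched their own number best, a hint from the data and not the design. With a replicate block, calls over all genes were 7 (relative) and 9 (spike-in), and the spike-in fold change of H19 was 0.06. Members at an unadjusted p under 0.05 with the block were 5 on relative scaling, Rtl1, Meg3, Peg3 and Dlk1 among them. On spike-in scaling there was 1 (Impact, edgeR adjusted p = 0.344). The share of all tested genes under 0.05 with the block is not given here, so these counts cannot be judged against it. With 4 libraries a group and low counts, differences of Dio3, Slc22a18, Magel2 and Usp29 within their wide errors were not detectable at this depth.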

Other observations

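A list of 56 other imprinted genes, of which 40 were tested, had 25 above and 15 below 0 on relative scaling (37.5% below, beside 48.8% of all tested genes) and a median log2 fold change of 0.04. On spike-in scaling 29 were above and 11 below 0, with a median of 0.16. Those at the smallest p on relative scaling were Zdbf2, a paternally expressed zinc finger gene (WT mean 43.9 ± 7.11 CPM, Dp1Tyb mean 34 ± 2.54, SD, n = 4; log2 fold change -0.37), Ampd3, an AMP deaminase (-0.49), Tfpi2, a protease inhibitor (0.60), and Cd81, a tetraspanin (0.19), each with an edgeR adjusted p = 0.999. The first 2 of these, of 40 tested, had an unadjusted p under 0.05 on that scale, beside 4.27% of all tested genes, and on spike-in scaling Tfpi2 alone did (log2 fold change 0.74), beside 1.17%. Cd81 was the one gene of that list whose libraries did not overlap on relative scaling, 229 to 267 CPM in WT and 268 to 305 in Dp1Tyb, beside 1.64% of all tested genes higher in this way.

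Ptprc, the pan-leukocyte phosphatase CD45, had the smallest p of the marker lists on relative scaling. It was at 13.7 to 15.1 CPM in WT and 7.08 to 8.25 in Dp1Tyb libraries, with a log2 fold change of -0.87 (edgeR adjusted p = 0.0903) on relative and -0.76 on spike-in scaling.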
